A study of Mus musculus with 16 samples.

Results

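Syndecans and glypicans are the 2 families of cell surface heparan sulfate proteoglycans, and all 10 of their genes (Sdc1 to Sdc4 and Gpc1 to Gpc6) were taken by symbol from a table of 56748 genes measured by bulk RNA-seq. Longitudinal muscle and myenteric plexus (LMMP) had been microdissected from the colon of Ednrb -/- mice, a model of Hirschsprung disease (HSCR), and of their Ednrb +/+ littermates (WT), both sexes, 2 to 4 weeks old, on a hybrid C57BL6/J-129Sv background. The Ednrb -/- mice were homozygous for the tm1Ywa allele, a germline disruption of the endothelin receptor B gene that is not limited to 1 cell type. There were 4 libraries each of WT proximal, HSCR proximal, WT distal and HSCR distal colon (16 in all). The HSCR proximal colon was the distended segment that holds ganglia. The study calls the HSCR distal colon aganglionic, although its staining showed ganglia there that were few and small. Nothing in the sources states which libraries share a mouse, so p-values measure the spread between these libraries.

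Syndecans are membrane-spanning core proteins with a short cytoplasmic tail, whereas glypicans are held on the outer face of the membrane by a glycosylphosphatidylinositol anchor. The heparan sulfate chains of both bind growth factors, morphogens and matrix proteins such as fibronectin, and so act as coreceptors and as links between cell and matrix. Sdc1 is the main syndecan of epithelia and of plasma cells, Sdc2 is found in mesenchymal and endothelial cells, Sdc3 in neural and musculoskeletal tissue, and Sdc4 in most adherent cells, where it sits in focal adhesions.

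Library totals ran from 21384372 to 45831881 counts, of which mitochondrial genes took 4.32% to 49.8%, leaving 10728446 to 42926041 counts. Library names of replicates 1 and 2 follow 1 pattern in every group and those of replicates 3 and 4 do not, and these 2 sets of libraries are called the 2 series below. Names of replicates 3 and 4 mix patterns: 1 in WT proximal, another in all distal libraries and both in HSCR proximal. Within that series the name pattern thus cannot be told apart from segment, or fully from genotype, and what it marks is not stated. The distal libraries were taken as distal from their titles, although another label of theirs names the proximal colon. Ednrb was counted in every library. In CPM (counts scaled to library size, with TMM factors), it measured 67.7, 33.9, 64.2 and 53.0 in WT proximal replicates 1 to 4 and 7.85, 12.6, 36.3 and 35.8 in HSCR proximal. In the distal colon it measured 12.2, 16.1, 28.3 and 40.2 in WT and 97.0, 5.55, 5.83 and 9.57 in HSCR. The library labelled HSCR distal replicate 1 therefore had the highest Ednrb level of all 16, and counts over the whole gene do not show whether a working transcript was made. A list of 15 enteric neuron genes had a mean log2 CPM of 5.44 in that library against -1.53 to 1.15 in the other HSCR distal libraries, and of 1.58 in the library labelled HSCR proximal replicate 1 and 2.04 in replicate 2 against 6.10 and 5.68 in replicates 3 and 4. Both HSCR replicate 1 libraries thus went against the segment of their label on this list and are called doubted below. A low value was not limited to HSCR, since WT distal replicate 1 had 1.71. Whether the segments of the doubted libraries were exchanged was not tested, and an exchange would change what each HSCR proximal and distal value that includes them means. Without them the neuron list was lower in HSCR than in WT by a mean log2 difference of -1.97 in proximal and -4.77 in distal colon. With HSCR proximal replicate 2 also left out, the proximal difference was -0.69 (exact permutation p = 0.533). HSCR proximal replicate 2 stood apart in another way: its list of 10 smooth muscle genes averaged 7.28 on the log2 CPM scale, against 10.05 to 11.61 elsewhere.

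The 4 syndecan genes lie on different chromosomes of the mm39 build and have 5 exons each in the reference annotation: Sdc1 at chr12:8821323-8843715, Sdc2 at chr15:32920869-33035081 and Sdc3 at chr4:130519848-130553630, all on the plus strand, and Sdc4 at chr2:164266167-164285807 on the minus strand. Gpc3 and Gpc4 are neighbours on the X chromosome (chrX:51361303-51702827 and chrX:51141898-51254129, both minus strand), and Gpc5 and Gpc6 are neighbours on chromosome 14 (chr14:115329647-116762591 and chr14:117162727-118213956, both plus strand). Gpc1 lies at chr1:92759367-92788501 on the plus strand and Gpc2 at chr5:138271917-138278267 on the minus strand. The span of Ankmy1, on the opposite strand, overlaps exons of Gpc1, and that of Gm43720, on the same strand, overlaps exons of Gpc2. Ankmy1 had 73 counts over all libraries against 43099 for Gpc1, and Gm43720 had 10 against 186 for Gpc2. The strand setting of the counting is not given in the sources used here, and reads of these neighbours may be mixed.

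The syndecan coding sequences are most alike at their 3′ ends, which encode the last part of the transmembrane segment and the cytoplasmic tail with its PDZ-binding end. The last 120 coding bases before the stop codon are shown, 5′ to 3′, from each gene's canonical GENCODE transcript (mm39). Whether reads of 1 syndecan were counted for another in this stretch was not tested. Capitals mark bases identical in all 4 genes in a MAFFT alignment.
Sdc1: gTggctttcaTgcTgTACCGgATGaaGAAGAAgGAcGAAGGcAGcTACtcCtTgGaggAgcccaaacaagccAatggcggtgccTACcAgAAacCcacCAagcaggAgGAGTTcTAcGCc
Sdc2: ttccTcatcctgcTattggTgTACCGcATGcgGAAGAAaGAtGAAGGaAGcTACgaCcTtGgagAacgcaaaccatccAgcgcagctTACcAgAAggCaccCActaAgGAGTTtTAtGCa
Sdc3: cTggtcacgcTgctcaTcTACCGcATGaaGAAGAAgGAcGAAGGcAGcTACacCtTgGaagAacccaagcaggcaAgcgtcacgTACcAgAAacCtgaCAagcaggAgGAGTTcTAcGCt
Sdc4: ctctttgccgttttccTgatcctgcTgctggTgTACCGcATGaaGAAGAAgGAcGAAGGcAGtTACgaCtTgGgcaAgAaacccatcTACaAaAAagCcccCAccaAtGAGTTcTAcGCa
Of 138 aligned columns, 53 held the same base in all 4 genes, as did 9 of the last 12 bases, which encode the PDZ-binding end. The longest unbroken run shared by any pair of the 10 genes was 29 bases, between Sdc3 and Sdc4, followed by 27 bases between Sdc1 and Sdc3. Over the whole coding sequence, Sdc1 and Sdc3 were 46.1% identical, Sdc2 and Sdc4 55.5%, and Gpc4 and Gpc6 66.0%.

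In LMMP, 7 of the 10 genes were well expressed, and Sdc4 led on a per-length scale. Median levels over the 16 libraries, in CPM per kilobase of counted gene length, were 89.3 for Sdc4, 50.7 for Sdc2, 42.0 for Sdc3, 35.2 for Gpc3, 21.4 for Gpc4, 13.5 for Gpc1 and 10.1 for Sdc1. Neighbours in this order crossed in many libraries: Sdc4 was above Sdc2 in 14 of 16, Sdc2 above Sdc3 in 11, Sdc3 above Gpc3 in 10, Gpc3 above Gpc4 in 13, Gpc4 above Gpc1 in 14 and Gpc1 above Sdc1 in 11. Gpc6 followed at 0.710 and was below Sdc1 in 16 of 16. Gpc2, known from developing neurons, had a median of 0.0172 and 186 counts in all libraries together, and Gpc5 had a median of 0 and 53 counts in all. The highest level of Sdc1 was 24.003 times its lowest and that of Sdc3 21.9 times, but both ratios rested on HSCR proximal replicate 2, without which they were 12.2 and 10.48. By the SD of log2 CPM over 16 libraries, Sdc3 (1.29), Gpc1 (1.16), Sdc1 (1.15) and Gpc3 (1.12) varied to a like degree, and Sdc2 was the steadiest of the 7 at 0.61, with a ratio of 3.40.

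**Figure D1:**
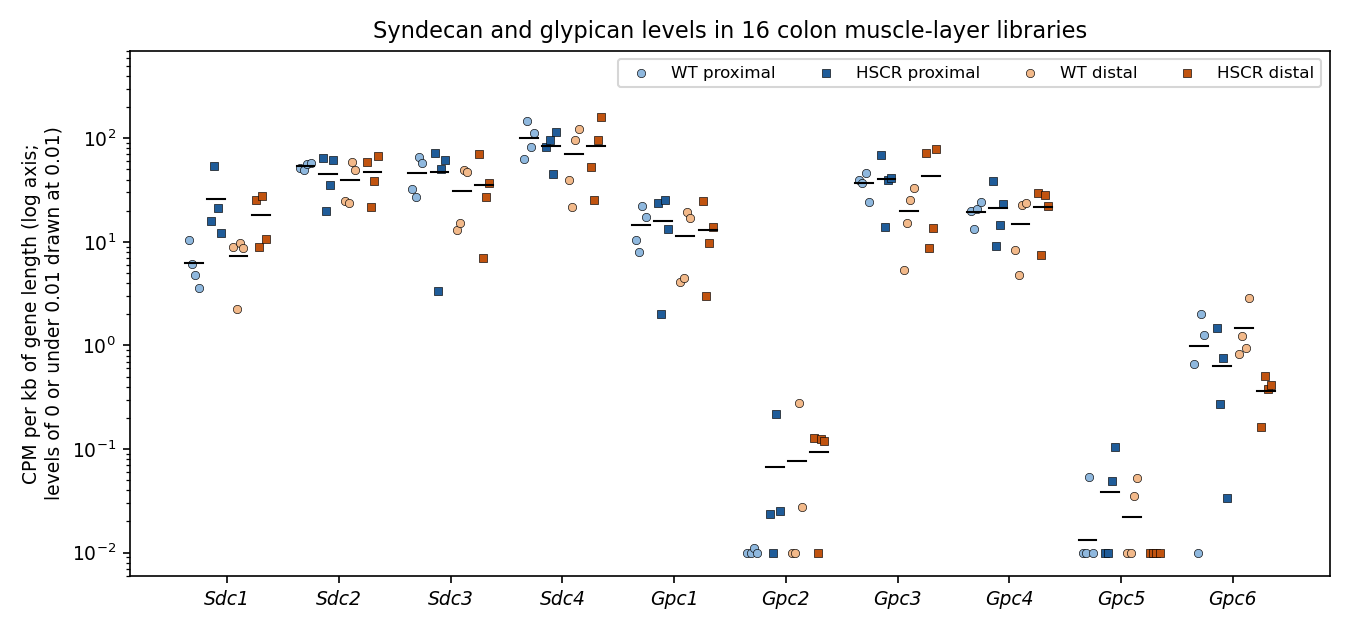
Level of each syndecan and glypican gene in every library, as TMM-scaled CPM per kilobase of gene length on a log axis, with 1 point per library, the 4 groups by colour, genotype also by marker shape and a line at each group mean. Levels of 0 are drawn at 0.01. The 4 HSCR proximal points of Sdc1 (12.2 to 54.0) all lie above the 4 WT proximal points (3.56 to 10.4), and the HSCR distal points of Gpc6 (0.165 to 0.505) all lie below those of WT distal (0.821 to 2.86).

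Sdc1 was higher in the ganglionic HSCR proximal colon than in WT. It measured 39.6, 23.5, 18.4 and 13.6 CPM in WT proximal replicates 1 to 4 and 60.2, 206, 80.7 and 46.6 CPM in HSCR proximal. The lowest HSCR library thus lay above the highest WT library, and HSCR replicate 2 stood well above the other 3. Group means were 23.8 ± 11.3 CPM (SD, n = 4) in WT and 98.3 ± 72.9 CPM (SD, n = 4) in HSCR, a fitted ratio of 4.05-fold. On the log2 scale the difference was 2.02 (SE 0.52), with p = 0.0039 and adjusted p = 0.649 over 16664 genes in edgeR's quasi-likelihood test, and an exact permutation p of 0.0286, the smallest that 4 against 4 libraries can give. Sdc1 therefore did not pass the adjusted threshold in that test. DESeq2 gave 2.05 with adjusted p = 0.0485. A re-run of the scheme that the study names removes 4 factors of unwanted variation from edgeR residuals (RUVr) before a likelihood ratio test. It gave 1.80 with adjusted p = 2.12e-06. That re-run called 3166 genes in this comparison and DESeq2 called 237, against 0 for the quasi-likelihood test. The study reports fewer changed genes here than the re-run called, so the re-run's values are not the study's own. In bulk tissue, more cells of a type and more RNA per cell cannot be told apart.

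Sdc1 was the only 1 of the 8 members tested in the proximal comparison with an unadjusted p under 0.05, where 6.62% of all genes tested had one. No member was called (adjusted p under 0.05 and a log2 difference beyond 1), as for 0% of all genes by edgeR's quasi-likelihood test. DESeq2 called 1 member, Sdc1, beside 237 genes in all, and RUVr called 2, Sdc1 and Gpc6, beside 3166 of 16664 genes. Sdc1 was also the only member whose 4 HSCR proximal libraries all exceeded the 4 WT libraries, which held for 2.03% of all genes. The Sdc1 difference was present in both series of library names, at 1.87 between means of log2 CPM in replicates 1 and 2 and 1.96 in replicates 3 and 4. Leaving out 1 library at a time gave fitted log2 differences from 1.39, without HSCR proximal replicate 2, to 2.36, without WT proximal replicate 1, and 2.196 without HSCR proximal replicate 1.

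In the distal colon, the Sdc1 groups overlapped. WT distal libraries measured 33.9, 8.57, 36.96 and 32.9 CPM, and HSCR distal libraries 97.5, 34.1, 104 and 40.9 CPM. Replicates 1 and 3 of HSCR stood above all WT libraries, replicate 4 stood just above them, and replicate 2 lay among them. The WT mean was 28.1 ± 13.1 CPM and the HSCR mean 69.2 ± 36.9 CPM (SD, n = 4 each). The log2 difference was 1.27 (SE 0.54), with p = 0.0426 and adjusted p = 0.9998 in edgeR's quasi-likelihood test and an exact permutation p of 0.0571. Without the 2 doubted libraries it was 1.04 and its unadjusted p no longer lay under 0.05. The genotype difference of Sdc1 was not shown to differ between segments: the distal minus proximal difference was -0.75 on the log2 scale (SE 0.78, adjusted p = 1.0).

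Epithelial genes varied widely among these muscle-layer libraries, and Sdc1 varied with them. A list of 24 epithelial genes that holds no member had mean log2 CPM values of 6.29, -0.09, -1.67 and -1.80 in WT proximal replicates 1 to 4 and 4.51, 9.07, 6.52 and 2.80 in HSCR proximal. Among distal libraries it had 5.87, 2.40, 4.31 and 2.04 in WT and 3.30, 5.87, 7.65 and 1.86 in HSCR. HSCR proximal replicate 2, the library with the most Sdc1, also had the most epithelial RNA, and 3 WT proximal libraries had the least. Epcam, an epithelial adhesion protein, ranged from 0.617 to 140 CPM in WT proximal and from 8.34 to 1473 CPM in HSCR proximal. All 24 list genes had a higher mean log2 CPM in HSCR than in WT proximal colon, the summed list ran from 64.7 to 4727 CPM in WT and from 324 to 24701 CPM in HSCR, and the mean difference of 5.04 (log2) had an exact permutation p of 0.0857. Between the distal groups 23 of 24 were higher, with summed levels of 204 to 3489 CPM in WT and 206 to 8080 CPM in HSCR, a mean difference of 1.02 and an exact permutation p of 0.571.

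Across the 16 libraries, log2 CPM of Sdc1 correlated with the epithelial list at Pearson's r = 0.735 (permutation p = 0.00123, adjusted p = 0.0123 over the 10 members) and Spearman's rho = 0.721 (permutation p = 0.00209, adjusted p = 0.0209). Without the 2 libraries farthest from the list's median, r was 0.648. The relation was closest in the 8 proximal libraries, at r = 0.931 (exact permutation p = 0.000794) and 0.879 without the 2 farthest libraries, and in the 8 libraries of replicates 3 and 4, at r = 0.961 (exact permutation p = 0.00151) and 0.921 without the 2 farthest. It was not past the threshold in the distal libraries (r = 0.444, exact permutation p = 0.279), nor in the libraries of replicates 1 and 2 (r = 0.623, exact permutation p = 0.0948). Within WT, r was 0.600 (exact permutation p = 0.115), and within HSCR it was 0.685 (exact permutation p = 0.0604), falling to 0.265 without the 2 farthest. Epcam alone in place of the list gave r = 0.770 over 16 libraries. No other member had an adjusted p under 0.05 with the list, and Sdc2 (r = -0.552) and Sdc3 (r = -0.543), each with adjusted p = 0.0957, came nearest.

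**Figure D2:**
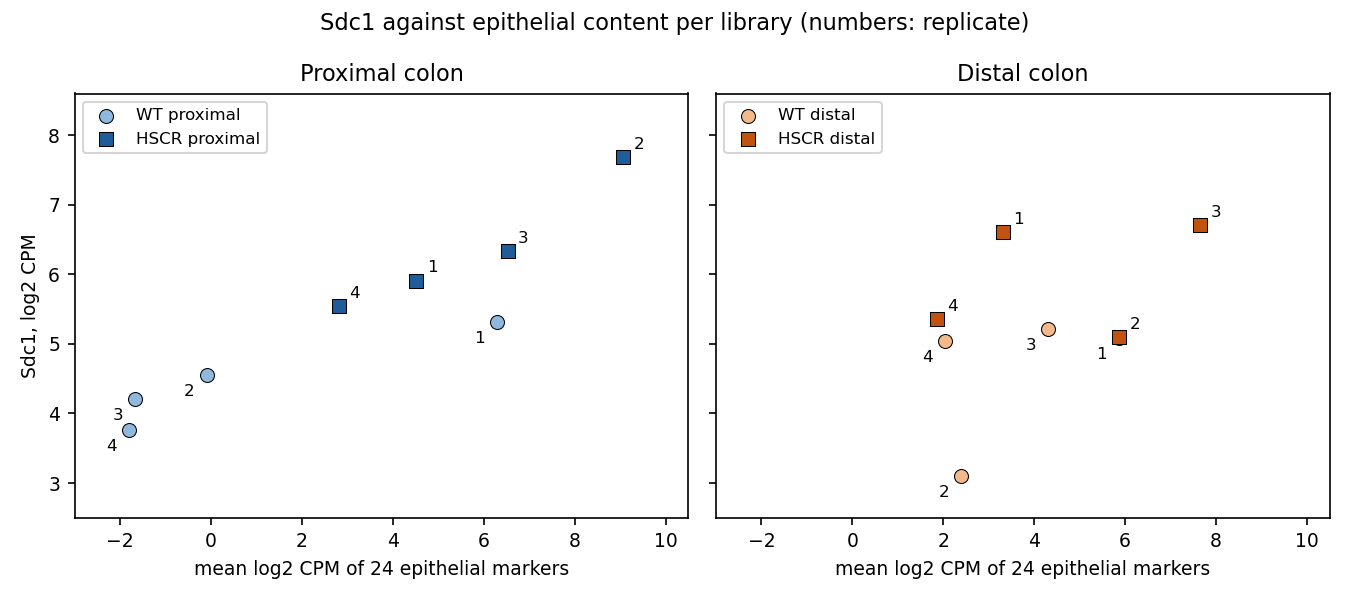
Sdc1 level (log2 CPM) against the mean log2 CPM of the 24 epithelial genes, 1 numbered point per library (the replicate), with proximal and distal colon in separate panels and genotype by colour and marker. WT proximal replicates 2 to 4 sit at the left with -1.80 to -0.09 on the list, HSCR proximal replicate 2 sits at the upper right with 9.07, and r over all 16 points is 0.735.

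With the epithelial list as a term in the edgeR fit, the Sdc1 log2 difference between genotypes in the proximal colon was 0.78 (adjusted p = 0.998), where it was 2.02 without the term. The distal Sdc1 difference was 1.15 with the term, against 1.27 without it, and its unadjusted p then lay above 0.05. Genotype and epithelial level overlap in these libraries, so the term takes up part of any genotype difference, and which of them carried Sdc1 cannot be told apart. Plasma cells are another known source of Sdc1. A list of 10 B and plasma cell genes summed to 0.0369 to 1.66 CPM in WT proximal and 1.12 to 8.30 CPM in HSCR proximal (8 of 10 higher, exact permutation p = 0.0857). Of the defining genes, Mzb1 and Tnfrsf17 were at 0 in all 4 WT proximal libraries and in 3 of 4 HSCR proximal libraries, whereas Jchain reached 0.904 CPM in WT and 5.38 CPM in HSCR and Cd79a 0.807 and 0.841 CPM, each at 0 in 1 of 4 HSCR proximal libraries. Lists of enteric glia and adipocytes were lower in HSCR than WT proximal colon, by mean log2 differences of -1.71 and -2.53 (exact permutation p = 0.0286 each). Over 16 libraries, Sdc1 correlated with the B and plasma cell list at r = 0.264, with glia at -0.579 and with adipocytes at -0.464. The permutation test gave adjusted p = 0.473, 0.0762 and 0.181 over 80 relations. Beyond these correlations, the part of these 3 lists in the Sdc1 result was not tested.

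The other 3 syndecans differed little between genotypes relative to their spread. Sdc2 measured 183, 174, 199 and 206 CPM in WT proximal and 227, 70.6, 124 and 216 CPM in HSCR proximal, a log2 difference of -0.28 (SE 0.38, adjusted p = 0.886). Sdc3 measured 195, 164, 398 and 346 CPM in WT proximal and 435, 19.9, 302 and 371 CPM in HSCR proximal, a log2 difference of 0.0091 (SE 0.74, adjusted p = 0.998). Its HSCR replicate 2, at 19.9 CPM, was the lowest of all 16 libraries and the same library that had the most Sdc1. Sdc4 measured 160, 372, 211 and 287 CPM in WT proximal and 211, 244, 115 and 292 CPM in HSCR proximal, a log2 difference of -0.29 (SE 0.37, adjusted p = 0.882). The genotypes overlapped for each of the 3 genes.

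Each distal difference of these syndecans had an adjusted p of 0.9998 in edgeR's quasi-likelihood test, as did those of the glypicans. Sdc2 measured 87.8, 84.1, 208 and 175 CPM in WT distal and 207, 76.8, 138 and 240 CPM in HSCR distal (log2 difference 0.22, SE 0.44). Sdc3 measured 77.7, 90.4, 298 and 283 CPM in WT distal and 426, 41.6, 163 and 220 CPM in HSCR distal (log2 difference 0.15, SE 0.70). In WT distal both genes were low in replicates 1 and 2 and high in replicates 3 and 4, a split that follows the 2 series of library names. Sdc4 followed the same split, with 101, 55.9, 245 and 314 CPM in WT distal and 133, 64.4, 247 and 410 CPM in HSCR distal (log2 difference 0.21, SE 0.66).

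Within the syndecan family, the share held by Sdc1 was larger in HSCR on average, without separating the groups. Of the summed CPM per kilobase of the 4 genes, Sdc1 made up 3.28% ± 2.26 in WT proximal and 14.2% ± 12.01 in HSCR proximal (SD, n = 4 each, exact permutation p = 0.0571), with 31.2% in HSCR proximal replicate 2. Without that library the HSCR proximal mean was 8.52% ± 4.80, and without the doubted library it was 16.7% ± 13.4. In the distal colon it made up 5.54% ± 3.20 in WT and 11.2% ± 4.97 in HSCR (exact permutation p = 0.0857), and 10.8% ± 6.02 in HSCR without the doubted library. Sdc4 held the largest mean share in every group, from 41.5% to 47.9%, against 21.6% to 28.9% for Sdc2 and 18.2% to 22.7% for Sdc3. A share must fall for some genes when it is larger for another, so these 4 values are not independent.

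**Figure D3:**
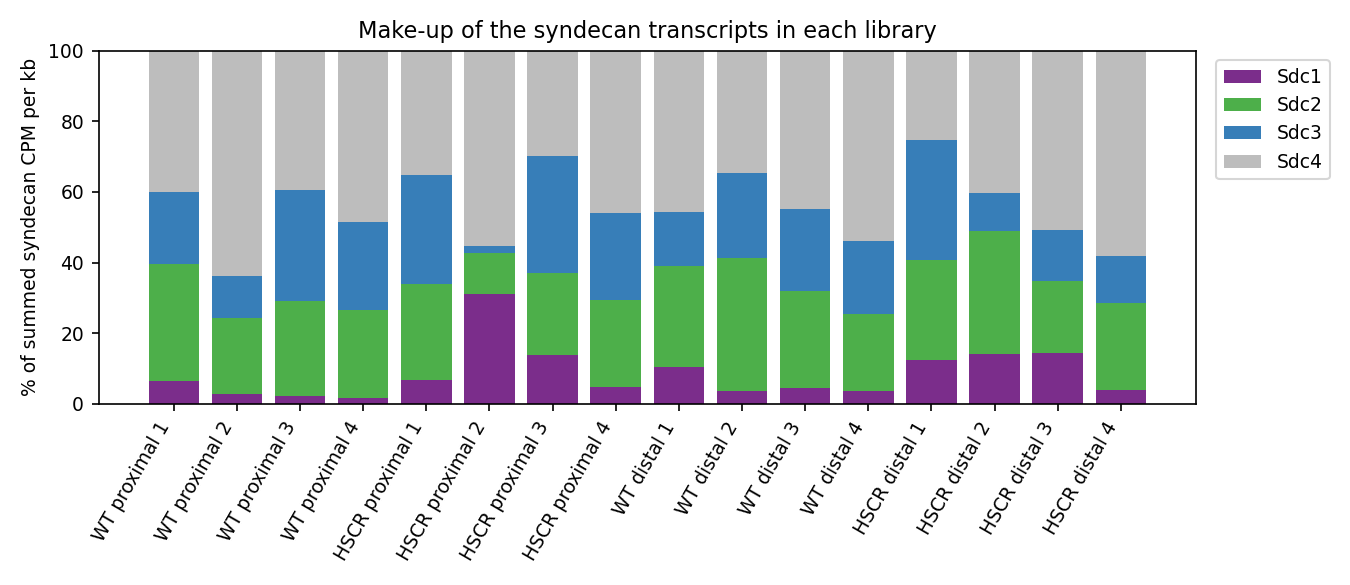
Share of each syndecan in the summed syndecan level (CPM per kilobase, in percent) in every library, as bars stacked from 0 to 100%. Sdc4 takes the most on average in all groups (41.5% to 47.9%), and the Sdc1 segment is widest in HSCR proximal replicate 2 (31.2%).

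Among the glypicans, Gpc6 was lower in the HSCR distal colon than in WT. Gpc6, the closest relative of Gpc4, measured 5.28, 7.96, 6.03 and 18.4 CPM in WT distal and 1.06, 3.24, 2.43 and 2.65 CPM in HSCR distal. Every HSCR library was under every WT library, and WT replicate 4 was highest. The WT mean was 9.41 ± 6.09 CPM and the HSCR mean 2.35 ± 0.924 CPM (SD, n = 4 each), resting on 158 to 783 counts per WT library and 37 to 115 per HSCR library. The log2 difference was -2.03 (SE 0.57), a ratio of 0.246, with p = 0.0063 and adjusted p = 0.9998 over 17059 genes in edgeR's quasi-likelihood test and an exact permutation p of 0.0286. It was -1.80 between means of log2 CPM in replicates 1 and 2 and -2.05 in replicates 3 and 4, and from -2.26 to -1.47 when any 1 library was left out. Without the doubted libraries, among them the lowest Gpc6 library, it was -1.79, still with an unadjusted p under 0.05. RUVr gave -2.09 with adjusted p = 9.35e-05, and in a fit of all 16 libraries together its unadjusted p lay above 0.05. The lists of enteric neurons (log2 difference -3.43, exact permutation p = 0.143, or -4.77 and 0.0571 without the doubted library) and enteric glia (exact permutation p = 0.114) were also lower on average in HSCR distal colon, with 15 of 15 and 9 of 10 genes lower. Over 16 libraries, Gpc6 correlated with the neuron list at Pearson's r = -0.025 (Spearman's rho = 0.335). With the glial list r was -0.020 (rho = 0.244). Within replicates 1 and 2, r with the neuron list was -0.627, and within replicates 3 and 4 it was 0.345. Beyond these correlations, the part of the 2 lists in the Gpc6 result was not tested.

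In the distal comparison 2 of the 9 members tested, Sdc1 and Gpc6, had an unadjusted p under 0.05, where 2.64% of all genes tested had one. None was called by edgeR's quasi-likelihood test, as for 0% of all genes, and none by DESeq2, whereas RUVr called both, beside 1470 of 17059 genes. Gpc6 was the only member whose 4 HSCR distal libraries all lay below WT, which held for 1.04% of all genes. In the proximal colon Gpc6 showed no such pattern, with 4.29, 0, 13.0 and 8.16 CPM in WT and 9.55, 1.76, 4.83 and 0.215 CPM in HSCR (log2 difference -0.68, SE 1.41, adjusted p = 0.934). There RUVr gave a difference of the opposite sign, 3.31 with adjusted p = 0.0188, so the proximal direction of Gpc6 depends on the scheme. The distal minus proximal difference in its genotype effect was -1.37 (SE 1.61, adjusted p = 1.0).

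Gpc3 and Gpc4, both X-linked, were the leading glypicans. Gpc3, an inhibitor of Hedgehog signalling whose human form is lost in an overgrowth syndrome, measured 107, 100, 125 and 65.6 CPM in WT proximal and 185, 37.1, 106 and 111 CPM in HSCR proximal (log2 difference 0.13, SE 0.45, adjusted p = 0.969). Its distal values were 14.4, 40.6, 68.6 and 89.5 CPM in WT and 194, 23.6, 36.7 and 211 CPM in HSCR (log2 difference 1.10, SE 0.79). HSCR distal replicates 1 and 4 were above every WT distal library, while replicates 2 and 3 lay among them, so the larger distal difference was within the spread. Gpc4, which takes part in FGF and Wnt signalling and in synapse formation, measured 52.1, 35.2, 54.9 and 65.1 CPM in WT proximal and 104, 24.3, 38.2 and 61.2 CPM in HSCR proximal (log2 difference 0.11, SE 0.44, adjusted p = 0.974). Distal Gpc4 values were 22.1, 12.6, 59.6 and 62.4 CPM in WT and 78.6, 19.7, 75.8 and 58.5 CPM in HSCR (log2 difference 0.53, SE 0.59).

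Gpc1, an FGF coreceptor of neural and muscle tissue, measured 54.3, 41.1, 115 and 90.6 CPM in WT proximal and 121, 10.4, 130 and 68.3 CPM in HSCR proximal (log2 difference 0.10, SE 0.67, adjusted p = 0.986). Distal Gpc1 values were 20.9, 23.3, 101 and 88.5 CPM in WT and 129, 15.4, 50.6 and 71.4 CPM in HSCR (log2 difference 0.15, SE 0.71). As with Sdc3, the genotypes overlapped and HSCR proximal replicate 2 was the lowest library. Gpc2 reached 0.047 CPM at most in WT proximal, 0.937 in HSCR proximal, 1.19 in WT distal and 0.543 in HSCR distal, and was at 0 counts in 7 of 16 libraries. It had too few counts to be tested in the proximal comparison, and its distal log2 difference was 0.20 (SE 1.68). Gpc5 had no count in HSCR distal and at most 0.465 CPM elsewhere, and it was tested in no comparison. Of the summed glypican level per kilobase, Gpc3 held 42.0% to 52.2% as group means, Gpc4 27.4% to 33.7%, Gpc1 16.4% to 22.6% and Gpc6 3.59% ± 1.55 in WT distal against 0.942% ± 1.11 in HSCR distal (SD, n = 4 each, exact permutation p = 0.0571).

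**Figure D4:**
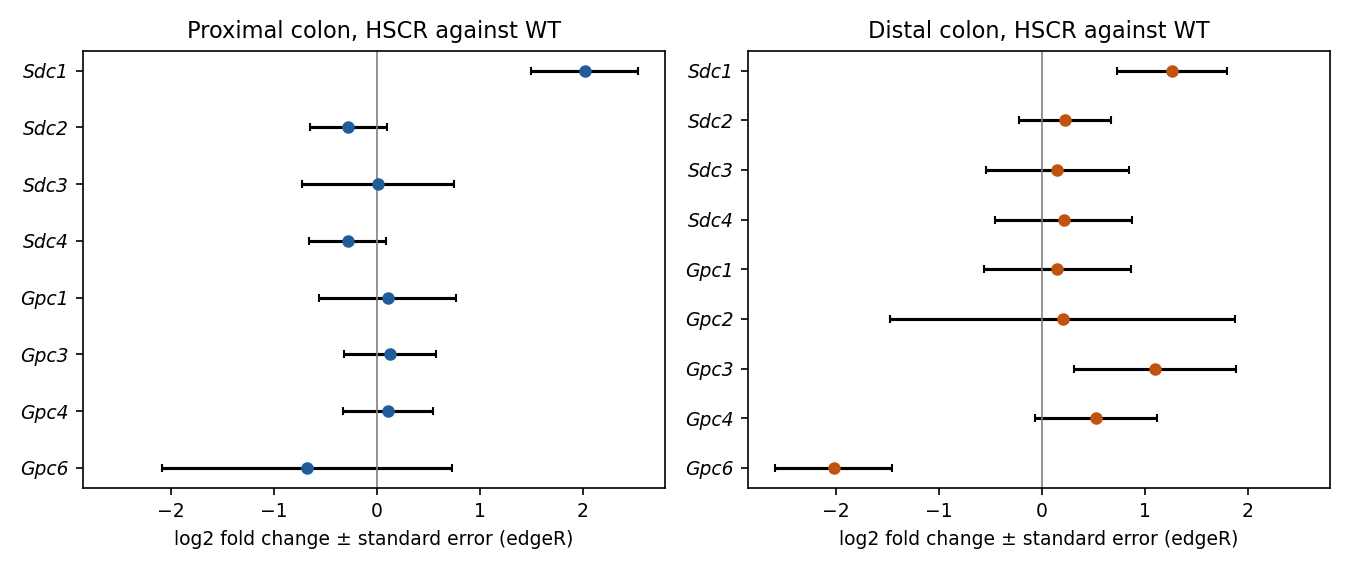
Log2 difference of HSCR against WT with its standard error for each member tested, in proximal and distal colon, from edgeR's quasi-likelihood fit. Sdc1 lies to the right of 0 in both segments (2.02 and 1.27) and Gpc6 to the left (-0.68 and -2.03), while the other members' differences lie between -0.29 and 1.10.

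Between segments, no member differed past the threshold. In WT, 8 members were tested and 0 were called, beside 0.0181% of all genes (3 of 16566), and 0 had an unadjusted p under 0.05, beside 5.23%. DESeq2 called 0 members and RUVr called 2, Gpc3 and Gpc6, beside 2529 of 16566 genes. Distal minus proximal log2 differences in WT ran from -0.88 for Gpc3 (SE 0.48, adjusted p = 0.906) to 0.58, and 6 of 8 were negative, with a median of -0.41 against 0.03 over all genes. In HSCR, 9 members were tested, 0 were called (0% of all genes) and 0 had an unadjusted p under 0.05 (1.49% of all genes), and neither DESeq2 nor RUVr called any. Sdc1 was lower in distal than in proximal HSCR colon by a log2 difference of -0.49 (adjusted p = 0.9998), which became 0.11 without HSCR proximal replicate 2. For the difference of genotype effects between segments, 0 of 9 members were called (0% of 18619 genes) and 0 had an unadjusted p under 0.05 (1.44%), with 0 called by DESeq2 and by RUVr.

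Members differed in how they moved together across libraries. Sdc2, Sdc3, Gpc1, Gpc3 and Gpc4 formed a set in which all 10 pairs had Pearson's r of 0.686 to 0.967 over 16 libraries, and all 10 had a permutation p under 0.05 after adjustment over the 28 pairs compared (9 of 10 by Spearman's rho). Sdc3 and Gpc1 were closest, at r = 0.967 and rho = 0.906 (permutation test, adjusted p = 0.00028 for both). The set was low together in WT distal replicates 1 and 2, HSCR proximal replicate 2 and HSCR distal replicate 2, which all belong to the first series of library names. Within replicates 1 and 2 the 10 correlations were 0.792 to 0.982, whereas within replicates 3 and 4 they ran from -0.787 to 0.673, with 6 of 10 positive. The pooled relation therefore did not hold in the second series, and Sdc3 with Gpc1 (r = 0.673, exact permutation p = 0.0662) was the closest pair there. Sdc1 stood outside the set, with r from -0.192 to 0.281 against the 7 other members compared and no adjusted p under 0.05.

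**Figure D5:**
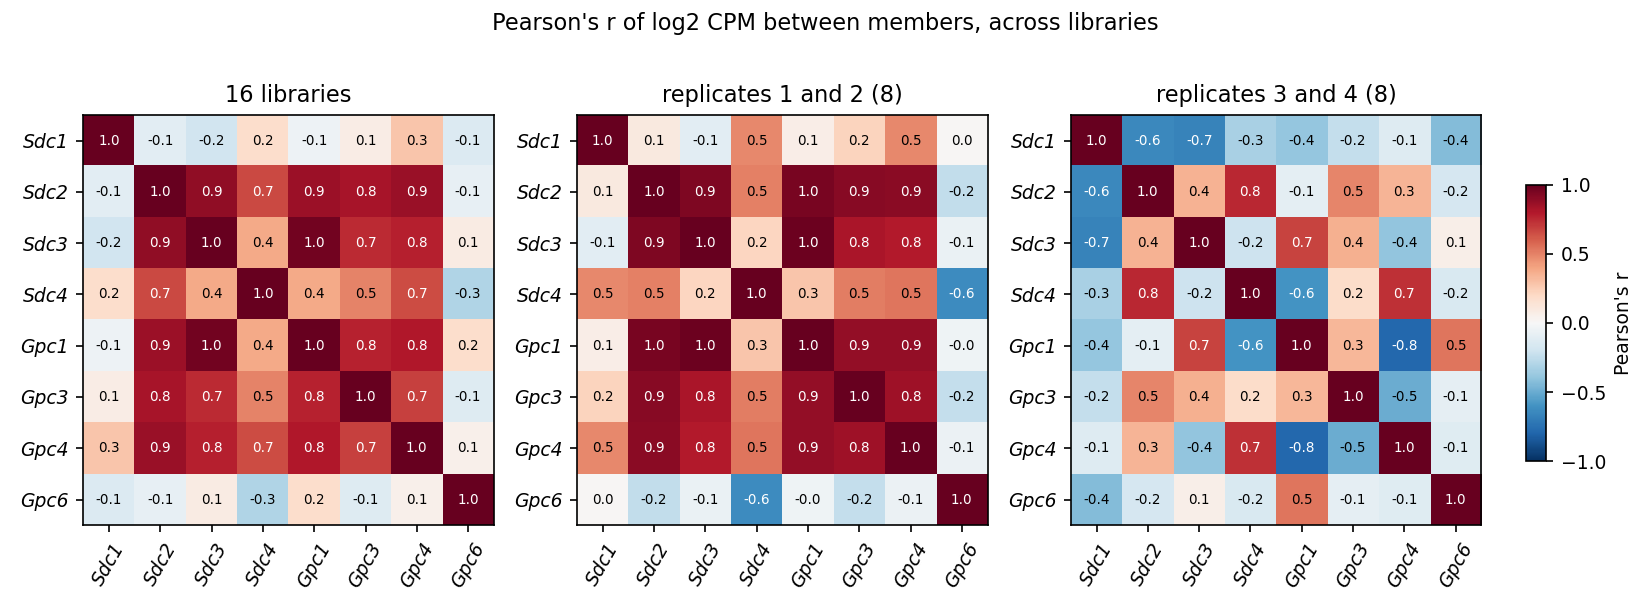
Pearson's r of log2 CPM between the 8 members with enough counts, over all 16 libraries, over the 8 of replicates 1 and 2 and over the 8 of replicates 3 and 4. The block of Sdc2, Sdc3, Gpc1, Gpc3 and Gpc4 is high in the first 2 panels (0.686 to 0.967 and 0.792 to 0.982) and mixed in sign in the last (-0.787 to 0.673).

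Marker lists of other cell types differed in whether their relation to a member held in both series. Sdc3 and Gpc1 followed the mesothelial list (8 genes) at r = 0.933 and 0.936 over 16 libraries, but at 0.088 and 0.161 within replicates 3 and 4. There Sdc3 had r = 0.821 with enteric neurons and 0.769 with enteric glia (exact permutation p = 0.0231 and 0.0275). Gpc1 had 0.693 and 0.771 there (exact permutation p = 0.0647 and 0.0258). Over 16 libraries these were 0.491 and 0.181 for Sdc3 and 0.474 and 0.132 for Gpc1. Sdc2 followed the endothelial list (10 genes) at r = 0.924 over 16 libraries (permutation test, adjusted p = 0.000267 over 80 relations), 0.957 within replicates 1 and 2 and 0.857 within replicates 3 and 4 (exact permutation p = 0.0117). Gpc3 (0.771) and Sdc4 (0.695) also followed it over 16 libraries, with 0.669 and 0.667 within replicates 3 and 4 (exact permutation p = 0.0665 and 0.0687). Sdc3 (0.795), Gpc1 (0.713) and Gpc4 (0.693) did so over 16 libraries, but had 0.312, -0.218 and 0.151 within replicates 3 and 4. Sdc2 also followed the smooth muscle list (10 genes), at r = 0.712 over 16 libraries, 0.613 within replicates 1 and 2 (exact permutation p = 0.0369) and 0.769 within replicates 3 and 4 (exact permutation p = 0.0162).

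The genes most like each member over 16 libraries, among 18618 others searched, are given as a description. For Sdc1 they were Dcaf15 (r = 0.910), Tor4a (0.906), Id1 (0.903), Iqgap1 (0.889) and Aldh1b1 (0.888). For Sdc3 they were Gpc1, Chst14 (0.965), Col3a1 (0.962), Aoc3 (0.957) and Mmp17 (0.953), and for Gpc1 they were Sdc3, Dkk3 (0.966), Chst14 (0.954), Loxl4 (0.954) and Tmem132a (0.950). These correlations are pooled over both series. Sdc2 was most like Atp1b3 (0.954), Ptgfrn (0.942), Cdh13 (0.942), Slc6a17 (0.927) and Gm28156 (0.920), and Sdc4 most like Sox17 (0.913), an endothelial transcription factor, Serinc3 (0.906), Derl1 (0.901), Psen2 (0.899) and Emc7 (0.890). Gpc3 was most like Npnt (0.977), Chsy1 (0.917), Kcnip1 (0.916), Artn (0.904) and Ppm1l (0.904). Gpc4 was most like Itgav (0.950), Fat1 (0.941), Tmtc3 (0.930), Wls (0.922), which carries Wnt proteins to the surface, and Reep3 (0.917). Gpc6 was most like Gm49937 (0.904), Dcun1d4 (0.900), ENSMUSG00000121226 (0.892), Gm5182 (0.888) and Klhl11 (0.885).

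The enzymes that build heparan sulfate chains showed no gene past the threshold of edgeR's quasi-likelihood test in the proximal colon. Of 30 genes of chain synthesis and modification, 29 were tested, 0 were called and 0 had an unadjusted p under 0.05, with a median log2 difference of 0.18 against 0.04 over all genes. DESeq2 called 0 of them. RUVr called 6, Hs3st2, Hs3st3a1, Hs3st5, Hs6st3, Ndst4 and Papss2, beside 3166 of 16664 genes over all. Slc35b2, which carries the sulfate donor into the Golgi, averaged 43.2 ± 11.8 CPM for WT against 65.0 ± 9.32 CPM for HSCR (SD, n = 4 each). This was a log2 difference of 0.56 (edgeR adjusted p = 0.752). The groups only just separated, at 54.10 CPM in the lowest HSCR library and 53.95 CPM in the highest WT library. Every HSCR proximal library exceeded every WT library for 2.03% of all genes. The sulfotransferases Hs3st5 (-1.55), Ndst4 (-2.71) and Hs6st3 (-3.09) had the next smallest p-values, none under 0.05 in that test, while RUVr called all 3. In the distal colon, 1 of 28, Ndst4, had an unadjusted p under 0.05, beside 2.64% of all genes, with a log2 difference of -4.67 (adjusted p = 0.9998). There RUVr called Hs3st3b1, Hs3st4 and Ndst4, beside 1470 of 17059 genes over all. The list's distal median was 0.39 against 0.04 over all genes.

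Genes that edit the chains or release the core proteins gave 0 of 11 at an unadjusted p under 0.05 in either segment by edgeR's quasi-likelihood test, with medians of 0.36 and 0.37 against 0.04 over all genes in both. The smallest proximal p-values belonged to Hpse2, a heparanase relative without heparanase activity (log2 difference 1.81), Sulf2, an extracellular sulfatase (1.11), the shedding protease Adam10 (0.36) and the heparanase Hpse (1.70). Without HSCR proximal replicate 2, Hpse2 (2.10), Sulf2 (1.47) and Adam10 (0.50) had an unadjusted p under 0.05, and Hpse did not. In that fit 1293 of 17155 genes had one. The edgeR adjusted p-values of Hpse2, Sulf2 and Adam10 were 0.649, 0.564 and 0.620. Leaving the doubted libraries out as well left 2 HSCR and 4 WT proximal libraries. Hpse2 (2.62, adjusted p = 0.838) and Sulf2 (1.86, adjusted p = 0.667) then had an unadjusted p under 0.05, beside 837 of 17798 genes, and Adam10 and Hpse did not. DESeq2 called 1 of this list in the proximal colon, Mmp7, a protease known to shed Sdc1. RUVr called 3 there, Hpse, Hpse2 and Notum, and in the distal colon 2, Hpse2 and Mmp9. Over all genes, RUVr called 3166 of 16664 in the proximal and 1470 of 17059 in the distal comparison. Among 10 cytoplasmic partners of syndecans, 1 had an unadjusted p under 0.05 in the proximal colon (6.62% of all genes did), the Rac activator Tiam1 (log2 difference -1.18, SE 0.48, edgeR adjusted p = 0.747), and 1 in the distal colon (2.64% of all genes), the kinase Prkca. RUVr called Tiam1 and Sdcbp2 in the proximal and Sdcbp2 in the distal comparison, beside the same totals over all genes. Without the doubted libraries the unadjusted p of Tiam1 was 0.0593 in edgeR's quasi-likelihood test. It was 0.0188 without HSCR proximal replicate 2 (adjusted p = 0.580) and 0.0218 with both exclusions (adjusted p = 0.975). Cask (0.31), Synj2bp (-0.35) and Cttn (0.34) came next in the proximal colon.

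Among 11 other proteoglycans that carry heparan sulfate always or at times, Spock3 had the smallest p-value in the proximal colon. Spock3 encodes a testican, a secreted proteoglycan of neural tissue. It measured 9.57, 18.0, 69.9 and 57.0 CPM in WT proximal and 2.05, 3.22, 8.93 and 7.98 CPM in HSCR proximal. The highest HSCR value was thus under the lowest WT value, and the share of all genes with this pattern was not counted. Of 1103 genes with an unadjusted p under 0.05 in this comparison, 689 were lower in HSCR. The Spock3 log2 difference was -2.83 (SE 0.75), with adjusted p = 0.649 in edgeR's quasi-likelihood test. Spock3 was the gene of this list that DESeq2 called. Its relatives Spock2 (-1.78) and Spock1 (-1.80) and the basement membrane collagen Col18a1 (-0.92) followed, none with a p under 0.05 in the quasi-likelihood test. RUVr called all 4 genes, beside 3166 of 16664 genes over all. Without the doubted libraries the Spock3 difference was -2.54, with an unadjusted p under 0.05. With all libraries Spock3 was the 1 of 11 genes with an unadjusted p under 0.05, beside 6.62% of all genes. The enteric neuron list was lower in the same libraries by a mean log2 difference of -2.73 (exact permutation p = 0.114, or -1.97 and 0.229 without the doubted library) and the glial list by -1.71 (exact permutation p = 0.0286), and their part in these values was not tested.

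Of 30 heparin-binding ligands and receptors, 29 were tested in the proximal colon, and 1 lay above and 1 below at an unadjusted p under 0.05, a share near the 6.62% of all genes, with a median log2 difference of 0.43 against 0.04 over all genes. Fgf1, whose binding to its receptors needs heparan sulfate, measured 35.6, 33.2, 102 and 83.0 CPM in WT proximal and 19.7, 12.5, 35.7 and 30.4 CPM in HSCR proximal (log2 difference -1.40, SE 0.49, edgeR adjusted p = 0.747). Distal Fgf1 values were 23.7, 55.3, 75.1 and 78.7 CPM in WT and 25.8, 33.7, 14.1 and 19.3 CPM in HSCR (log2 difference -1.35, SE 0.44, unadjusted p again under 0.05), and the groups overlapped in both segments. Areg, an EGF receptor ligand, measured 1.36, 0, 0.166 and 0.475 CPM in WT proximal and 1.20, 12.7, 6.56 and 3.65 CPM in HSCR proximal (log2 difference 3.61, SE 1.27, edgeR adjusted p = 0.747). HSCR replicate 2, highest in Sdc1 and in epithelial genes, was also highest in Areg, and without it the difference was 2.97 with an unadjusted p above 0.05. Without the doubted libraries the Fgf1 differences were -1.29 in proximal and -1.41 in distal colon, and without HSCR proximal replicate 2 as well the proximal one was -0.94 with an unadjusted p above 0.05. Ptch1 (0.73) and Pdgfa (-0.66) had the next smallest p-values. DESeq2 called none of this list in either genotype comparison, and RUVr called 4 of it in proximal colon (Areg, Fgf1, Fgfr3 and Ihh) and the same 4 and Fgf10 in distal colon. Over all genes, RUVr called 3166 of 16664 in the proximal and 1470 of 17059 in the distal comparison.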

How the data were processed

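RNA of LMMP from 16 colon libraries, 4 in each of 4 groups, was sequenced by the study. Per the labels and the study's methods, the authors aligned reads with HISAT2 (2.2.1) to mm39 and deposited raw counts per gene from featureCounts (2.0.6) against a GENCODE gene model, beside FPKM and gene lengths in bases. The deposited counts were used here. The deposited FPKM served only as an alternative level of Sdc1 (log2, pseudocount 0.1), and the lengths gave CPM per kilobase. A second deposited table, of the authors' own fold changes and p-values for changed genes between HSCR and WT proximal colon, was not used. Groups and replicate numbers came from the sample titles. Library preparation is described as strand-specific for some libraries and not for others, without saying which, and all libraries carry the same batch label.

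Members were all 10 syndecan and glypican genes, and members, pathway lists and marker lists were chosen with earlier results of these data known. Each comparison was fitted on its 8 libraries with edgeR 4.0.16 (filterByExpr, TMM, quasi-likelihood test, Benjamini-Hochberg over all genes tested), and the difference between segments on all 16, in R 4.3.3. A gene was called at an adjusted p under 0.05 and a log2 difference beyond 1. Levels are CPM scaled by TMM over 16 libraries, and log2 CPM used a prior count of 0.5. Single values were compared by exact two-sided permutation tests, and correlations by permutation (100000 resamples for 16 libraries, exact for 8), with Python 3.11.15 and scipy 1.17.1. From each pathway list the 4 genes of the smallest proximal p were named, and for each member of at least 1 CPM on average the 5 genes of the highest r. Mmp7, Prkca and the distal Ndst4 value were named after their values were seen. Coding sequences were aligned with MAFFT. Alternatives were DESeq2 1.42.0, no count filter, a replicate block, the 2 series of library names as a term, RUVr with 4 factors, removal of mitochondrial genes, 1 fit of 16 libraries, the epithelial list as a term, and libraries left out. Values of shares, marker lists and pathway genes without doubted libraries, and without HSCR proximal replicate 2, were added after seeing the data. The tests were run first on simulated data. No pair of libraries was identical (0 pairs). Counting error is smallest for the deepest libraries, and the 186 and 53 counts of Gpc2 and Gpc5 over all libraries give little precision for these genes.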

Additional observations from a re-analysis of the deposited data

Results flagged for a closer look

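In each group of 4 libraries, the highest and the lowest value of each of the 10 members and of Sdc1's epithelial list were checked for standing far from the other 3, in 44 groups, of which about 1 in 20 would stand apart by chance. Sdc1 was lowest in WT distal replicate 2, at 8.57 CPM against 32.9 to 36.96 CPM in the other 3 libraries. The other values that stood apart belong to genes with few counts. For Gpc2 they were the highest WT proximal library (0.0475 CPM), the highest HSCR proximal library (0.937 CPM), the highest WT distal library (1.19 CPM) and the lowest HSCR distal library (0 CPM). For Gpc5 it was the highest WT proximal library (0.237 CPM). No member's genotype difference differed between segments by edgeR's quasi-likelihood test.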

How the results depend on the processing

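Sdc1 stayed higher in HSCR proximal colon under every alternative run. DESeq2 (2.05) and RUVr (1.80) brought it past the adjusted threshold, and the number of members called became 1 and 2 with them. At an unadjusted p under 0.05, the 1 proximal member became 2 with RUVr and 0 with the epithelial list as a term. In the distal comparison RUVr called 2 members, and 1 rather than 2 had an unadjusted p under 0.05 in the fit of all 16 libraries, without the doubted libraries, and, over single libraries left out, 1 to 2. In WT between segments, the count at an unadjusted p under 0.05 was 1 with the replicate block, 3 with the series term and 5 with RUVr, which called 2, and 0 to 1 over single libraries left out. It was 1 without the count filter in HSCR between segments and in the difference between segments, and 1 with RUVr in the latter.

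Directions that turned (log2 differences) belonged to values within 1 SE of 0. In the proximal comparison, RUVr gave Sdc3 -0.505, Gpc1 -0.20, Gpc3 -0.0255, Gpc4 -0.034 and Gpc6 3.31. The epithelial term gave Sdc2 0.11, Sdc4 0.17 and Gpc6 0.077. Without the doubted libraries, values were Sdc3 -0.26, Gpc1 -0.13, Gpc3 -0.24 and Gpc4 -0.34, and without HSCR proximal replicate 2 as well, chosen after seeing the data, Gpc4 was -0.057. In the distal comparison RUVr gave Sdc3 -0.012, and leaving out the doubted libraries gave Sdc3 -0.46 and Gpc1 -0.41. With the epithelial term, Sdc1 was -0.15 between WT segments and 0.17 for the difference between segments. Leaving out each library in turn gave proximal ranges of -0.26 to 0.40 for Sdc3, -0.18 to 0.48 for Gpc1, -0.24 to 0.42 for Gpc3 and -0.34 to 0.37 for Gpc4. Distal ranges were -0.013 to 0.51 for Sdc2, -0.46 to 0.49 for Sdc3, -0.32 to 0.62 for Sdc4, -0.41 to 0.57 for Gpc1 and -0.19 to 3.15 for Gpc2, and Sdc1 between HSCR segments ranged from -0.74 to 0.11. The causes were not tested.

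With the replicate number as a block, Sdc1 was 1.89 in the proximal and 1.32 in the distal comparison, and the block turned Sdc3 to -0.48, Gpc1 to -0.27, Gpc3 to -0.037 and Gpc4 to -0.076 in the proximal and Sdc3 to -0.11 in the distal comparison. It changed no count of members called. Same-numbered libraries did not deviate together in every pair (correlations of -0.12 to 0.25 in the proximal and -0.21 to 0.42 in the distal comparison), and 1 and 2 of 4 libraries correlated best with their own number. Between segments the correlations were 0.096 to 0.42 in WT, with 3 of 4 best with their own number, and 0.00013 to 0.36 in HSCR, with 2 of 4. In both, 3 of 4 pairs were over 0.1. Library names of replicates 1 and 2 also share a number across groups, and what it marks is not stated. Since not every pair was over 0.1, the numbers were not taken as pairs. The correlation of Sdc1 with the epithelial list was 0.750 with FPKM, 0.738 without TMM, 0.654 without HSCR proximal replicate 2 and 0.779 without the doubted libraries.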
